A study of Mus musculus with 109 samples.

Results

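Amacrine and horizontal cells are the inhibitory interneurons of the retina, and 10 genes that mark them were followed here through every treatment, day and genotype of a retinal RNA-seq experiment. The genes were chosen by name, but with earlier results of these data known. Of the 37315 genes counted, 7 members mark amacrine cells (Gad1, Gad2, Slc32a1, Slc6a9, Chat, Th and Tfap2b) and 3 mark horizontal cells (Lhx1, Onecut1 and Calb1). All 10 passed the filter on low counts in every fit.

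Whole retinas of 64 mice, 109 in all, were sequenced after an injection into the vitreous of the eye, and 45 of the mice gave both eyes. The WT mice were C57BL/6J, the Sarm1-/- mice were deficient in the axon degeneration gene Sarm1 throughout the body, and all were 2 to 4 months old. The injections held IL1A, TNF or both, cytokines that activated microglia release, or PBS as the control. The study asked how IL1A and TNF, alone and together, change the retina before retinal ganglion cells (RGCs) are lost, and whether Sarm1 loss alters this. In batch 1, WT retinas taken on day 2 after injection had received PBS (31 retinas), TNF (8), IL1A (9) or IL1A+TNF (10). WT retinas taken on day 14 had received PBS (7) or TNF (6), and those on day 35 PBS (6) or TNF (9). In batch 2, all taken on day 2, WT retinas had received PBS (5) or IL1A+TNF (6), and Sarm1-/- retinas PBS (6) or IL1A+TNF (6). PBS was injected with the same needle puncture of the eye as the cytokines, no uninjected retina is among the samples, and many PBS retinas were the fellow eye of a treated one.

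Amacrine cells synapse on bipolar cells, RGCs and each other, and most release GABA or glycine, while horizontal cells feed back onto photoreceptors. Gad1 and Gad2 make GABA from glutamate, Slc32a1 loads GABA and glycine into synaptic vesicles, and Slc6a9 takes glycine up at the cell surface. Chat makes acetylcholine in starburst amacrine cells, the interneurons of direction selectivity, and Th makes the dopamine precursor in a sparse class of amacrine cells. Tfap2b, Lhx1 and Onecut1 are transcription factors of amacrine or horizontal cell development, and Calb1 is a calcium-binding protein that fills horizontal cells and some amacrine cells. In RNA from whole retinas, fewer cells of a type and less RNA per cell cannot be told apart.

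Total counts per retina ranged from 30014757 to 79064488, with a median of 39374202, and levels are given in CPM, which are counts relative to the library total after scaling with TMM factors. Sarm1 was at 26.2 to 53.2 CPM in the 12 Sarm1-/- retinas and at 76.4 to 136 CPM in the 97 WT retinas, with no overlap. Counts on the lens markers ran from 0.361 to 4218 CPM in summed level among the WT PBS retinas of day 2, and their part in the results was not tested. Before any result, 2 of the 6 Sarm1-/- IL1A+TNF retinas stood apart, and so did 1 of the 6 WT IL1A+TNF retinas of batch 2. In the 2 Sarm1-/- retinas Gad1 was at 25.7 and 27.3 CPM against 160 to 256 CPM in the other 4. The summed microglia and leukocyte markers of these 2 were 364 and 344 CPM against 133 to 200 CPM in the other 4. Of those 4, the retina lowest for Gad1 was also lowest for Slc6a9 (61.2 CPM), Chat (4.33 CPM) and Calb1 (42.3 CPM). It stayed in every fit described as without the low retinas. The low WT retina had 105 CPM of Gad1 against 170 to 218 CPM in the other 5. Its summed lens markers were 4367 CPM against 0.568 to 6.48 CPM in the other 5, and its RGC markers 337 CPM against 492.8 to 580.5 CPM. Its bipolar markers were also lower, at 743 CPM against 789 to 1186 CPM, as were its Müller glia markers, at 2227 CPM against 2415 to 2817 CPM. Its rod, cone and microglia and leukocyte sums lay inside the ranges of the other 5, and the part of all these markers was not tested. Results that rest on these 3 retinas are given with and without them, a choice made after seeing the data. Among the 31 WT PBS retinas of day 2 in batch 1, 1 was lowest for Lhx1 (3.66 CPM) and Onecut1 (0.868 CPM). Another was lowest for Gad2 (55.4 CPM), with Onecut1 at 0.911 CPM. In a fit that weighted retinas by quality, these PBS retinas had weights of 0.358 and 0.437, against 0.418 for the low WT retina. Neither PBS retina was left out in turn, and their part in the results was not tested.

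Compared per kilobase of exon in the 31 WT PBS retinas of day 2, the level was highest for Gad1 at 34.7 ± 2.61 CPM per kb (SD, n = 31), followed by Tfap2b at 32.2 ± 2.16, Slc6a9 at 23.1 ± 1.79 and Slc32a1 at 20.2 ± 1.83. Calb1 at 14.5 ± 1.58 and Gad2 at 11.8 ± 0.941 CPM per kb came next. The remaining members were lower, with Chat at 2.30 ± 0.227, Lhx1 at 1.69 ± 0.278, Th at 0.884 ± 0.196 and Onecut1 at 0.498 ± 0.110 CPM per kb. The order set genes of broad classes above genes of sparse cells such as those with Chat or Th. The ranges of neighbours in this order overlapped, except between Tfap2b and Slc6a9 and between Gad2 and Chat. Between the 31 retinas the coefficient of variation of the CPM ran from 6.73% for Tfap2b to 22.2% for Th.

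Some members share exon sequence with other genes, so their counts are less certain. Onecut1 shares 2171 exon bases with Gm20649 on the same strand. Slc6a9 shares 1986 exon bases with genes on the opposite strand (Ccdc24, Gm17114 and B4galt2) and Slc32a1 shares 697 with Gm14205, and whether counting used strand is not given in the sources used here. Gad1 on chr2:70553072-70602014 (GRCm38, plus strand) has a processed pseudogene, Gad1-ps, on chr10:99444044-99445819. The pseudogene is shown here because its counts moved against those of Gad1. It aligned with the Gad1 transcript over 1773 bases at 95% identity with 88 mismatches, and 0 of the 1527 windows of 150 bases, the length of a read, were identical. A stretch of 90 bases, from exons 3 and 4 of the 17 exons of Gad1 (spanning chr2:70567214-70572760) and from chr10:99444144-99444233 of the pseudogene, shows how close they are, with capitals at the 4 mismatches.
Gad1: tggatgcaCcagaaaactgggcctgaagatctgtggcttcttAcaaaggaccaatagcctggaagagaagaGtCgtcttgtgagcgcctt
Gad1-ps: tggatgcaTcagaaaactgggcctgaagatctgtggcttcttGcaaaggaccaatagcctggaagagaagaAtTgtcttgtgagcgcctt

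Because Tfap2b and Onecut1 encode DNA-binding factors, the promoters of the members were searched on both strands for a TFAP2 motif (GCCNNNGGC) and an ONECUT motif (ATCGAT). RefSeq windows on GRCm38.p6, from 250 bases before to 50 bases after a start, were matched for 9 of the 10 members. The TFAP2 motif was found in 16.6% of 32851 promoters and in the promoter of 1 member, Gad2, and the ONECUT motif in 0.925% of promoters and in no member. The matches in Gad2, in capitals, start 242 and 121 bases before the RefSeq start site, within chr2:22622077-22622103 and chr2:22622196-22622224 on the plus strand. The GENCODE gene starts upstream of the RefSeq site, at 22622205, so the second match lies inside it.
Gad2 upstream: gtgaaattGCCCTCGGCcaccattcca
Gad2 nearer the RefSeq start: gacctggagcGCCTGTGGCtgggtcagca

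To ask what the combined cytokines did to these cells, IL1A+TNF retinas were compared with PBS retinas on day 2. Of the 10 members, 8 were lower at an FDR under 0.05 (6 amacrine and 2 horizontal cell genes) and none was higher, and the changes were small. The decreases ran from 0.12 for Slc32a1 to 0.39 for Slc6a9 on the log2 scale. Among all 19548 genes tested, 50.4% were called and 25.5% were called lower, and the median log2 fold change was −0.02 over all genes and −0.24 over the 10 members.

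The GABA-synthesizing enzyme Gad1 was at 217, 267 and 296 CPM (lowest, median and highest) in the 31 PBS retinas and at 173, 211 and 261 CPM in the 10 IL1A+TNF retinas. All 10 treated retinas lay below the PBS mean and 7 lay below the lowest PBS retina, so the groups overlapped only in part. The mean fell from 265 ± 19.9 to 214 ± 23.8 CPM, a log2 fold change of −0.31 (SE 0.0489, FDR 2.51e-07). Gad2, the second GABA-synthesizing enzyme, was at 55.4, 70.5 and 78.4 CPM after PBS and 52.6, 61.1 and 70.4 CPM after IL1A+TNF. Only 1 treated retina lay outside the PBS range, although 9 of 10 lay below the PBS mean (log2 fold change −0.18, SE 0.0456, FDR 0.000588). The lowest PBS values were 55.4 and 57.5 CPM and the next was 59.6 CPM, while the lowest treated values were 52.6, 56.5, 57.4 and 59.1 CPM. The vesicular transporter Slc32a1 moved least of the genes called, from 47.4, 57.4 and 66.8 CPM to 45.2, 50.5 and 58.3 CPM. With 7 of 10 treated retinas below the PBS mean, its log2 fold change was −0.12 (SE 0.0440, FDR 0.0189).

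The glycine transporter Slc6a9 had the largest decrease of the 10. Its level was 95.9, 119 and 135 CPM after PBS and 74.9, 94.1 and 104 CPM after IL1A+TNF. All 10 treated retinas lay below the PBS mean and 8 below the lowest PBS retina. The mean fell from 119 ± 9.22 to 90.5 ± 8.90 CPM, a log2 fold change of −0.39 (SE 0.0409, FDR 6.04e-12). Chat went from 8.28, 11 and 12.8 CPM to 7.08, 8.77 and 11.3 CPM, with 2 treated retinas under the PBS range (log2 fold change −0.28, SE 0.0617, FDR 0.000129). Th, the rate-limiting enzyme of dopamine synthesis, was at 1.34, 2.11 and 3.69 CPM after PBS and 1.32, 1.66 and 2.58 CPM after IL1A+TNF. Although 9 of 10 treated retinas lay below the PBS mean, Th did not pass the test (log2 fold change −0.22, SE 0.107, FDR 0.0733).

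Tfap2b, the transcription factor, fell from 176, 205 and 228 CPM to 141, 176 and 196 CPM. All 10 treated retinas lay below the PBS mean, and 5 below the lowest PBS retina (log2 fold change −0.23, SE 0.0390, FDR 1.76e-06). Of the horizontal cell genes, Calb1 was at 53.4, 69.5 and 86.8 CPM after PBS and 40.3, 55.3 and 69.2 CPM after IL1A+TNF. Again all 10 treated retinas lay below the PBS mean, 4 of them outside the PBS range (log2 fold change −0.37, SE 0.0636, FDR 2.17e-06). Lhx1 was at 3.66, 7.09 and 9.44 CPM after PBS and at 4.50, 6.07 and 6.94 CPM after IL1A+TNF. All treated retinas stayed within the PBS range, with 9 of 10 under its mean (log2 fold change −0.25, SE 0.0833, FDR 0.0100). The low end of that range was 1 PBS retina, and the next was at 5.55 CPM, above treated values of 4.50, 4.65, 4.91 and 5.28 CPM. Onecut1 was not called, at 0.868, 2.08 and 2.81 CPM after PBS and 1.26, 1.85 and 2.30 CPM after IL1A+TNF (log2 fold change −0.15, SE 0.117, FDR 0.296).

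**Figure D1:**
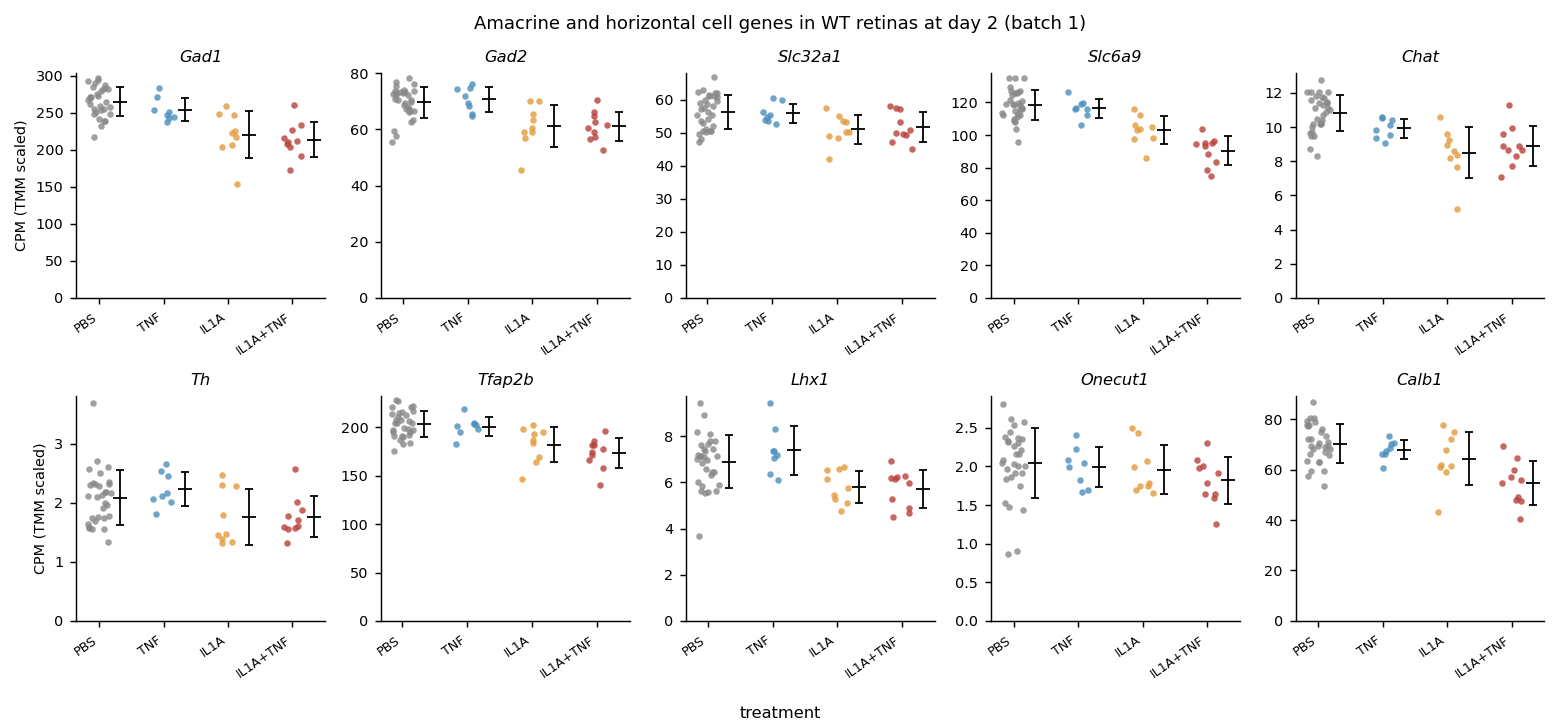
CPM of the 10 members in WT retinas of batch 1 on day 2, 1 panel per gene and 1 dot per retina, with the mean and SD, after PBS (n = 31), TNF (8), IL1A (9) or IL1A+TNF (10). For Gad1 and Slc6a9, 7 and 8 of the 10 IL1A+TNF dots lie below the lowest PBS dot, while the TNF dots lie within the PBS range for all 10 genes.

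The Gad1-ps pseudogene moved the other way. It was at 0.271, 0.690 and 1.86 CPM in PBS retinas and at 3.67, 4.51 and 4.91 CPM in IL1A+TNF retinas. The groups did not overlap, and the log2 fold change was 2.59 (SE 0.155, FDR 5.73e-20). In IL1A retinas it was 2.15 to 4.95 CPM, again above every PBS retina (log2 fold change 2.42, FDR 4.64e-17). In TNF retinas it was 0.313 to 1.24 CPM, inside the PBS range (log2 fold change 0.19, FDR 0.923). Its level in CPM had a median of 0.259% of that of Gad1 after PBS and 2.21% after IL1A+TNF. With its counts added to those of Gad1, a choice made after seeing the data, the log2 fold change of Gad1 after IL1A+TNF was −0.29.

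Other genes of these cells were read from lists of general knowledge. Of 14 other amacrine transcription factors tested after IL1A+TNF, 12 were lower and none higher, with a median log2 fold change of −0.19. The most clearly lower of these was Isl1 (−0.41, FDR 8.40e-09), a factor that starburst, bipolar and ganglion cells also express. Of 10 genes of GABA and glycine handling, 5 were lower and 2 higher, one of the latter being Gad1-ps. Glutamine synthetase (Glul), an enzyme of Müller glia, was at 1025 to 2343 CPM after PBS and 530 to 1268 CPM after IL1A+TNF, with some overlap (log2 fold change −0.99, FDR 3.22e-11). Of 7 other genes of starburst cells, 3 were lower and 1 higher. Of 9 other horizontal cell genes, 6 were lower and 1 was higher, with a median log2 fold change of −0.22. Sept4, a septin, went from 75.1 to 116 CPM after PBS to 49.5 to 83.9 CPM after IL1A+TNF (log2 fold change −0.55, FDR 8.35e-13).

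The genes of dopamine synthesis and storage did not share a direction, with 4 of 10 lower and 2 higher. Ddc, which makes dopamine from its precursor, was lower (log2 fold change −0.71, FDR 0.000345). Gch1, which makes the cofactor of Th, was higher, at 0.321 to 2.18 CPM after PBS and 1.64 to 3.38 CPM after IL1A+TNF (log2 fold change 0.89, FDR 9.69e-08). Of 16 amacrine peptides and type markers, 6 were lower and 3 higher. The neuropeptide Crh rose from 0.125 to 1.26 CPM to 0.738 to 2.64 CPM (log2 fold change 1.18, FDR 1.54e-05). The opioid peptide gene Penk was lower (log2 fold change −0.96, FDR 0.00278), and its PBS range was wide, 5.72 to 60.8 CPM against 5.48 to 15.2 CPM. The connexin Gjd2 of electrically coupled AII amacrine cells was at 63.1 to 93.1 CPM after PBS and 45.7 to 71.9 CPM after IL1A+TNF (log2 fold change −0.52, FDR 7.84e-12). Dab1, a marker of AII cells, was also lower (−0.39, FDR 2.47e-09).

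Markers of other cells moved in the same retinas. After IL1A+TNF all 6 microglia and leukocyte markers were higher, and their summed level was 165 to 357 CPM against 42.6 to 103 CPM after PBS. Lower were 8 of 9 RGC markers (summed level 488 to 649 CPM against 556 to 794 CPM), 7 of 8 bipolar markers (748 to 1321 CPM against 994 to 1581 CPM), 7 of 8 rod markers (22820 to 41400 CPM against 35440 to 55090 CPM) and all 7 cone markers (229 to 885 CPM against 780 to 1159 CPM). Müller glia markers split, 2 higher and 2 lower of 6 (summed level 1554 to 3194 CPM against 2205 to 4192 CPM), and of 4 astrocyte markers 3 were higher and 1 lower (165 to 383 CPM against 71.6 to 209 CPM). Of 7 pigment epithelium markers 6 were lower, and no erythrocyte marker (5 tested, 12 to 29.6 CPM against 10.5 to 32.7 CPM) or lens marker (5 tested, 1.17 to 2808 CPM) was called. No marker of these lists was at 0 throughout the PBS or the IL1A+TNF group. Since CPM is a share of all counts, a member can move with the rest of the library, and the part of other cells in the decreases was not tested.

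IL1A alone lowered 6 members, all amacrine cell genes, where 21.4% of all genes were called and 9.45% called lower. Gad1 was at 154, 223 and 259 CPM, with all 9 retinas below the PBS mean and 4 below the PBS range (log2 fold change −0.27, SE 0.0507, FDR 2.88e-05). Chat was at 5.20, 8.62 and 10.6 CPM, 3 of 9 retinas under the PBS range, and moved most (−0.36, SE 0.0667, FDR 3.28e-05). Slc6a9 was at 85.9, 104 and 116 CPM, and only 1 retina lay outside the PBS range (−0.20, SE 0.0425, FDR 0.00028). The others called were Gad2 (−0.19, FDR 0.00244), Tfap2b (−0.16, FDR 0.00201) and Slc32a1 (−0.14, FDR 0.0229). Not called were Th (−0.25, FDR 0.121), Lhx1 (−0.22, FDR 0.0600), Calb1 (−0.14, FDR 0.144) and Onecut1 (−0.03, FDR 0.921). The IL1A retina with the lowest Gad1, Gad2, Chat and Calb1 was the same one in each case, and without it 5 members were called. With mouse as a fixed factor over 7 pairs of eyes, 1 member was called, Chat (−0.40). The share of all genes called in that smaller fit is not given here, so the count cannot be read as particular to the members. Beside these values all 6 microglia and leukocyte markers were higher, at a summed level of 93.7 to 241 CPM. Lower were 7 of 9 RGC markers (425 to 687 CPM), 6 of 8 rod markers (24340 to 43750 CPM), 5 of 7 cone markers (366 to 860 CPM) and 2 of 8 bipolar markers (1095 to 1391 CPM). The part of these other cells was not tested. In the lists, 7 of 14 amacrine transcription factors, 6 of 16 peptides and type markers, 3 of 9 horizontal cell genes, 4 of 10 genes of GABA and glycine handling, 2 of 7 of starburst cells and 1 of 10 of dopamine were lower. Higher were 1 gene of GABA and glycine handling, which was Gad1-ps, and 1 of dopamine, which was Gch1 (0.64). Among the lower genes, Glul (−0.86, FDR 2.56e-08) and the choline transporter Slc5a7 (−0.25, FDR 0.000286) fell.

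Set directly against IL1A alone, IL1A+TNF differed in 1 member, with 10.1% of all genes called and 4.68% called lower. Slc6a9 was lower after both cytokines than after IL1A (log2 fold change −0.19, SE 0.0522, FDR 0.0131). Calb1 had a log2 fold change of −0.23 and an FDR of 0.057. In the lists the few genes called included Isl1 (−0.32), Gjd2 (−0.25) and Sept4 (−0.33), which were lower after both cytokines, and Crh (0.99), which was higher. The interaction of IL1A and TNF, the departure from adding their separate log2 changes, was called for none of the members and for 3.6% of all genes. By limma, Slc6a9 alone had an unadjusted p under 0.05 (−0.17, p = 0.018), and edgeR and DESeq2 each called 0 members, with 1 at an unadjusted p under 0.05.

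TNF alone left no member called on day 2, where 0.655% of all genes were. Log2 fold changes ran from −0.12 for Chat to 0.12 for Lhx1, and no treated retina lay below the lowest PBS retina for any of the 10 genes. Chat was at 9.09, 9.95 and 10.6 CPM, with 8 of 8 retinas under the PBS mean. Gad1 was at 238, 249 and 283 CPM and Slc6a9 at 106, 116 and 127 CPM, both inside the PBS range. By limma, edgeR and DESeq2 alike, 0 members were called and 0 had an unadjusted p under 0.05, while 1497 of all genes had one by limma. The summed microglia and leukocyte markers were 36.0 to 157 CPM, and 3 of these markers were higher.

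The later days asked whether the TNF effect on these genes was delayed. On day 14 none was called and 0.0% of all genes were, although 838 genes had an unadjusted p under 0.05. Among the members only Slc32a1 did, at 51.6, 54.4 and 64.2 CPM after TNF and 56.7, 60.5 and 62.6 CPM after PBS (log2 fold change −0.11, p = 0.019 and FDR 0.888 by limma). Below the lowest PBS retina lay 4 of its 6 TNF retinas. edgeR and DESeq2 each called 0 members on day 14, with 1 at an unadjusted p under 0.05. Gad1 on day 14 was at 253, 274 and 308 CPM after TNF and 256, 282 and 308 CPM after PBS, nearly the same range. On day 35, again with 0.0% of all genes called and 871 at an unadjusted p under 0.05, log2 fold changes of the members ran from −0.04 to 0.03. By limma, edgeR and DESeq2 none was called or had an unadjusted p under 0.05. Gad1 on day 35 was at 278, 303 and 320 CPM after TNF and 289, 309 and 329 CPM after PBS. The summed microglia and leukocyte markers were 25.5 to 57.7 CPM after TNF and 23.7 to 33.7 CPM after PBS on day 14, and 19.1 to 22.0 CPM and 16.7 to 22.1 CPM on day 35. Tested across the days, the TNF effect differed for no member and 0.0% of genes (595 at an unadjusted p under 0.05).

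Levels in the PBS eyes did differ by day. Across days 2, 14 and 35 after PBS, 7 of the 10 members differed by an F test with 36.2% of all genes called. Of the 7 PBS retinas of day 14, 2 were the eyes of 1 mouse, and the fit had no block for it. On day 14 against day 2, 4 members were higher, with 19.2% of all genes called and 8.68% called higher. These were Tfap2b (log2 fold change 0.17, SE 0.0383, FDR 0.00121), Slc6a9 (0.16, FDR 0.00545), Gad2 (0.13, FDR 0.0359) and Gad1 (0.12, FDR 0.0406). With 1 of the 2 eyes of the shared mouse left out, 3 or 2 members were called, and Gad1 was lost in both cases. On day 35 against day 2, 7 were higher and none lower, with 32.8% of all genes called and 15.4% called higher. The median log2 fold change of the members was 0.21, against 0.00 (0.0035) over all genes.

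Tfap2b was at 176, 205 and 228 CPM on day 2, at 213, 225 and 245 CPM on day 14 and at 231, 235 and 241 CPM on day 35. All 6 day 35 retinas lay above the highest of day 2 (log2 fold change 0.22, SE 0.0409, FDR 3.87e-05). Gad1 went from a median of 267 CPM on day 2 to 256, 282 and 308 CPM on day 14 and 289, 309 and 329 CPM on day 35. Of the day 35 retinas 4 of 6 lay above the day 2 range (0.23, SE 0.0461, FDR 0.000148). Th was at 1.91, 2.55 and 3.02 CPM on day 14 and 1.74, 2.82 and 4.06 CPM on day 35 (day 35 against day 2, 0.45, SE 0.133, FDR 0.00754). Its day 35 retinas spread widely and 1 lay above the day 2 range. Lhx1, at 7.71, 8.76 and 9.86 CPM on day 35, was also higher than on day 2 (0.38, SE 0.0948, FDR 0.00158), as were Gad2 (0.21, FDR 0.000641), Slc32a1 (0.17, FDR 0.00712) and Slc6a9 (0.15, FDR 0.0118). Chat (0.14, FDR 0.0708), Onecut1 (0.33, FDR 0.091) and Calb1 (0.10, FDR 0.254) were not called. Between days 35 and 14 none was called, with 4.25% of all genes called. By limma, edgeR and DESeq2, 0 members had an unadjusted p under 0.05 there.

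**Figure D2:**
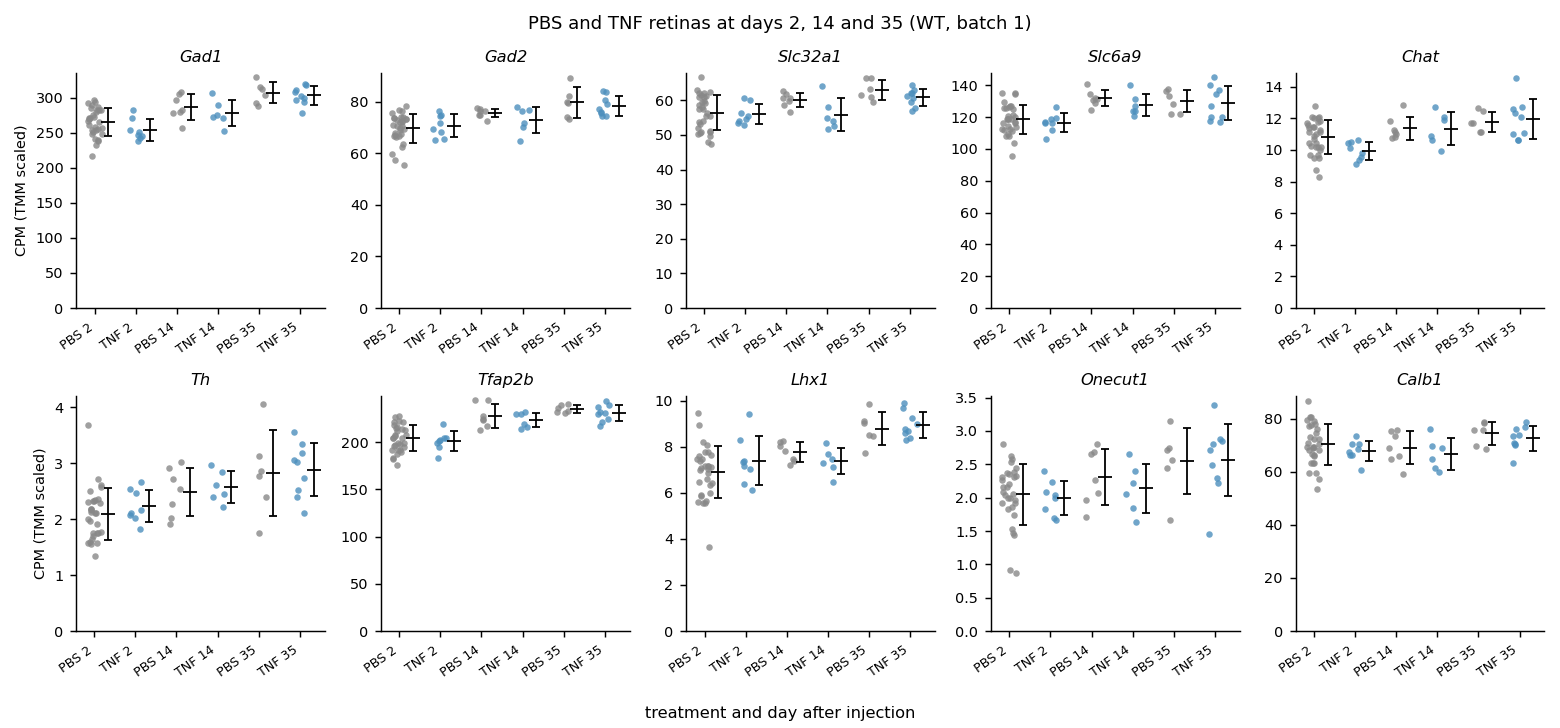
CPM of the 10 members in WT retinas of batch 1 after PBS (grey) or TNF (blue) on days 2, 14 and 35, 1 dot per retina, with the mean and SD. The 6 PBS dots of Tfap2b on day 35 all lie above the 31 of day 2, and PBS and TNF dots of the same day overlap for every gene.

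Other genes of these cells moved between days 2 and 35 as well. Of the amacrine transcription factors 8 of 14 were higher and none lower, of the peptides and type markers 7 of 16, and of the horizontal cell genes 6 of 9. Genes of GABA and glycine handling were higher in 6 of 10 cases, starburst genes in 3 of 7 and dopamine genes in 1 of 10. Gjd2 rose from 63.1 to 93.1 CPM on day 2 to 95.5 to 102 CPM on day 35, without overlap (log2 fold change 0.36, FDR 9.47e-07). The GABA transporter Slc6a13, expressed by pigment epithelium and vessels, was lower by 2.41 on the log2 scale. Pts, an enzyme of the Th cofactor, was also lower (−0.31). In the same PBS retinas the summed microglia and leukocyte markers were 42.6 to 103 CPM on day 2, 23.7 to 33.7 CPM on day 14 and 16.7 to 22.1 CPM on day 35, and all 6 were lower on day 35. Markers of other retinal cells were higher on day 35 than on day 2, among them 7 of 8 rod markers (summed level 51960 to 60080 CPM against 35440 to 55090 CPM), 5 of 7 cone markers (1200 to 1340 CPM against 780 to 1159 CPM, without overlap), 6 of 9 RGC markers (711 to 823 CPM against 556 to 794 CPM) and 3 of 8 bipolar markers (1251 to 1600 CPM against 994 to 1581 CPM). The Müller glia sum was 3888 to 4392 CPM against 2205 to 4192 CPM, with 2 of 6 markers higher and 1 lower. Their part in the rise of the members was not tested. Time after the injection, age and the day of collection cannot be told apart here. The fellow eyes differed too, since some PBS retinas of day 2 came from mice whose other eye received IL1A or IL1A+TNF. On days 14 and 35 the treated fellow eyes had received TNF only, and the part of this difference was not tested.

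The Sarm1-/- experiment asked whether the loss of Sarm1 alters the response. In PBS retinas no member differed between genotypes, with 0.0397% of all genes called. Log2 fold changes ran from −0.08 for Onecut1 to 0.17 for Gad1. By limma, edgeR and DESeq2, 0 members were called and 0 had an unadjusted p under 0.05, while 984 of all genes did by limma. Gad1 in the 5 WT PBS retinas of batch 2 was at 254, 256, 258, 264 and 264 CPM, and in the 6 Sarm1-/- PBS retinas at 240, 270 and 288 CPM (lowest, median and highest). Of the 6 Sarm1-/- retinas, 5 lay above the highest WT retina and 1 below the lowest.

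After IL1A+TNF, the counts of members called in Sarm1-/- mice depended on the 2 retinas that stood apart. With all 6 retinas, all 10 members were lower than in Sarm1-/- PBS retinas, with 43.5% of all genes called and 22.2% called lower. Each of the 6 treated retinas had its fellow PBS eye, and with mouse as a fixed factor over these 6 pairs 0 members were called. The share of all genes called in that paired fit is not given here, so this count cannot be read as particular to the members. Without the 2 low retinas, 12.6% of all genes and 3 members were called, namely Slc6a9 (log2 fold change −0.41, FDR 0.00192), Gad1 (−0.35, FDR 0.0328) and Chat (−0.49, FDR 0.0158). With all retinas the same genes had log2 fold changes of −0.72, −1.33 and −1.42. Slc6a9 was at 39.2, 74.2 and 99.2 CPM in the 6 IL1A+TNF retinas and at 100.3, 113 and 121 CPM in the 6 PBS retinas. These groups did not overlap, and the 4 higher retinas lay below the PBS range as well. Gad1 in the 4 other retinas was at 160, 222, 225 and 256 CPM, and 3 of these lay below the PBS range. The remaining 7 members, without the low retinas, had log2 fold changes from −0.29 for Calb1 to 0.02 for Th, against −1.24 and −1.09 with them.

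In the 2 low retinas the decrease was deep for most members but unequal. The mean of the other 4 retinas exceeded the first by 2.21-fold for Slc6a9 and 13.7-fold for Chat, and the second by 1.93-fold for Slc6a9 and 25.6-fold for Th. Tfap2b was at 33.4 and 25.4 CPM against 183 to 204 CPM, and Calb1 at 6.83 and 6.26 CPM against 42.3 to 65.3 CPM. RGC and bipolar markers were low in the same 2 retinas, the former at summed levels of 117 and 96.9 CPM against 297 to 675 CPM and the latter at 309 and 292 CPM against 983 to 1347 CPM. Müller glia markers were also lower, at 1295 and 1663 CPM against 1944 to 2923 CPM. Photoreceptor sums lay inside the ranges of the other 4 but under their medians. Rod sums were 28870 and 24590 CPM against 21910 to 44930 CPM (median 36240 CPM). Cone sums were 243 and 246 CPM against 217 to 802 CPM (median 626 CPM). The leukocyte gene Ptprc, at 76.0 and 68.9 CPM, lay above the 21.4 to 53.5 CPM of the other 4. The summed lens markers were 1.07 CPM in one of the 2, where 2 of 6 lens markers were at 0, and 5500 CPM in the other, against 0.699 to 469 CPM in the remaining 4. The part of these other cells in the low values was not tested.

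Compared directly after IL1A+TNF, Sarm1-/- retinas had 9 members lower than WT retinas by limma, with 14.8% of all genes called and 10.8% called lower. The log2 fold changes ran from −0.61 for Lhx1 to −1.0 for Chat (FDR 0.00307), with Gad1 at −0.80 (FDR 0.00982), while Slc6a9 was not called (−0.23, FDR 0.102). This count was 0 by edgeR and 0 by DESeq2, each with 4 members at an unadjusted p under 0.05, and 0 by limma without either of the 2 low retinas. The shares of all genes called in these fits are not given here, so the counts of 0 cannot be read as particular to the members. The interaction of genotype and treatment was called for 6 members by limma, all more negative in Sarm1-/-, with 8.75% of all genes called and 7.24% called lower. Gad1 had an interaction of −0.97 (FDR 0.0202) and Chat of −1.07 (FDR 0.0102). Again 0 were called without either low retina. Without both, 0 of all 20479 genes tested were called for the interaction. Within batch 2 and without all 3 low retinas, the ratio of the mean CPM in Sarm1-/- to that in WT after IL1A+TNF lay between 0.970 for Chat and 1.23 for Th. The limma comparisons, unlike this ratio, also used the WT retinas of batch 1. In the lists, 11 of 16 peptides and type markers, 8 of 14 amacrine transcription factors, 5 of 9 horizontal cell genes, 6 of 10 genes of GABA and glycine handling and 2 of 7 starburst genes were lower in Sarm1-/- after IL1A+TNF, with the low retinas included. Among these were Calb2 (−1.03), Vip (−0.92), Crh (−1.50) and Nefm (−1.02). Without the 2 low Sarm1-/- retinas, 0.889% of all genes were called and none in any of these lists, with Calb2 at 0.00 (0.0038), Vip at 0.11, Crh at −0.57 and Nefm at −0.12. Without all 3 low retinas 0.489% were called, again none in these lists.

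**Figure D3:**
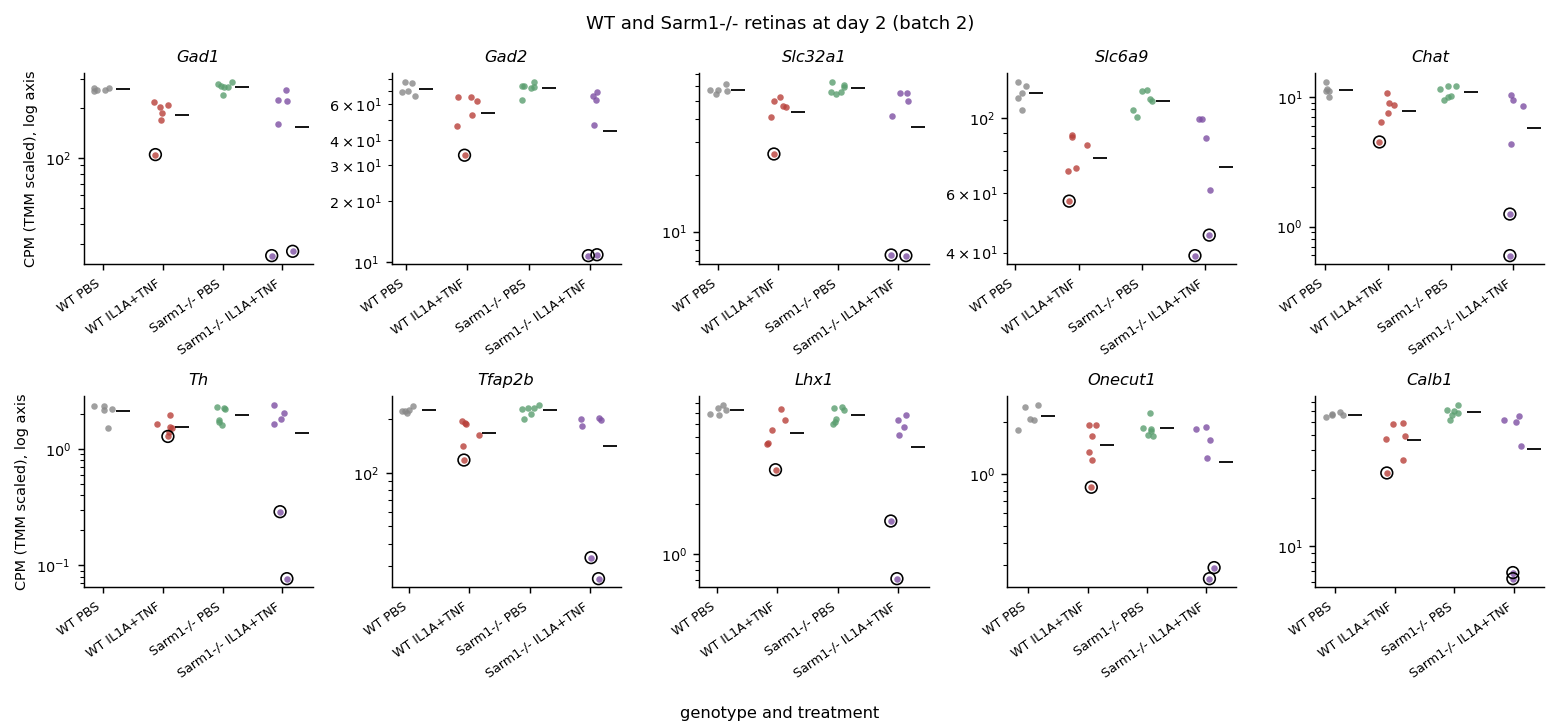
CPM of the 10 members (log axis) in the day 2 retinas of batch 2 by genotype and treatment, 1 dot per retina and a bar at the mean (n = 5, 6, 6 and 6), with the 3 low retinas circled. The 2 circled Sarm1-/- IL1A+TNF dots lie far under the other 4, least so for Slc6a9.

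WT retinas of batch 2 repeated the IL1A+TNF comparison. All 10 members had lower means than after PBS, and 1 was called, Slc6a9 (log2 fold change −0.62, SE 0.185, FDR 0.0215), with 20.9% of all genes called and 7.55% called lower. Gad1 was at 105, 194 and 218 CPM after IL1A+TNF, below each of the 5 PBS retinas. The same absence of overlap was found for Gad2, Slc32a1, Slc6a9, Tfap2b and Calb1, also without the lowest WT retina. How many of all genes lacked overlap was not counted, so this cannot be read as particular to the members. The fit took its spread from all 23 retinas of batch 2. Leaving out the 2 low Sarm1-/- retinas gave 10 members called, with 37.2% of all genes called. Leaving out the low WT retina too gave 9, with 32.8% of all genes called. Without these 3 retinas Gad1 was at −0.38 (FDR 0.00385), Slc6a9 at −0.54 (FDR 0.00109), Tfap2b at −0.36 (FDR 0.00204) and Calb1 at −0.43. Chat was then at −0.38 (FDR 0.088). Without the low WT retina alone no member was called. The IL1A+TNF effect did not differ between the batches for any member, with 0.0% of all genes called. By limma 6 members had an unadjusted p under 0.05 for that difference and none without the low WT retina, and edgeR and DESeq2 each called 0, with 3 at an unadjusted p under 0.05. Gad1-ps was at 0.235 to 0.458 CPM after PBS and 3.93 to 9.34 CPM after IL1A+TNF (log2 fold change 3.98, FDR 3.24e-05). Within Sarm1-/- retinas Gad1-ps was also higher after IL1A+TNF than after PBS (2.99, FDR 3.04e-09, low retinas included). Its levels there were 1.99 to 6.91 CPM, or 1.99 to 4.03 CPM without the 2 low retinas, against 0.171 to 1.38 CPM after PBS.

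**Figure D4:**
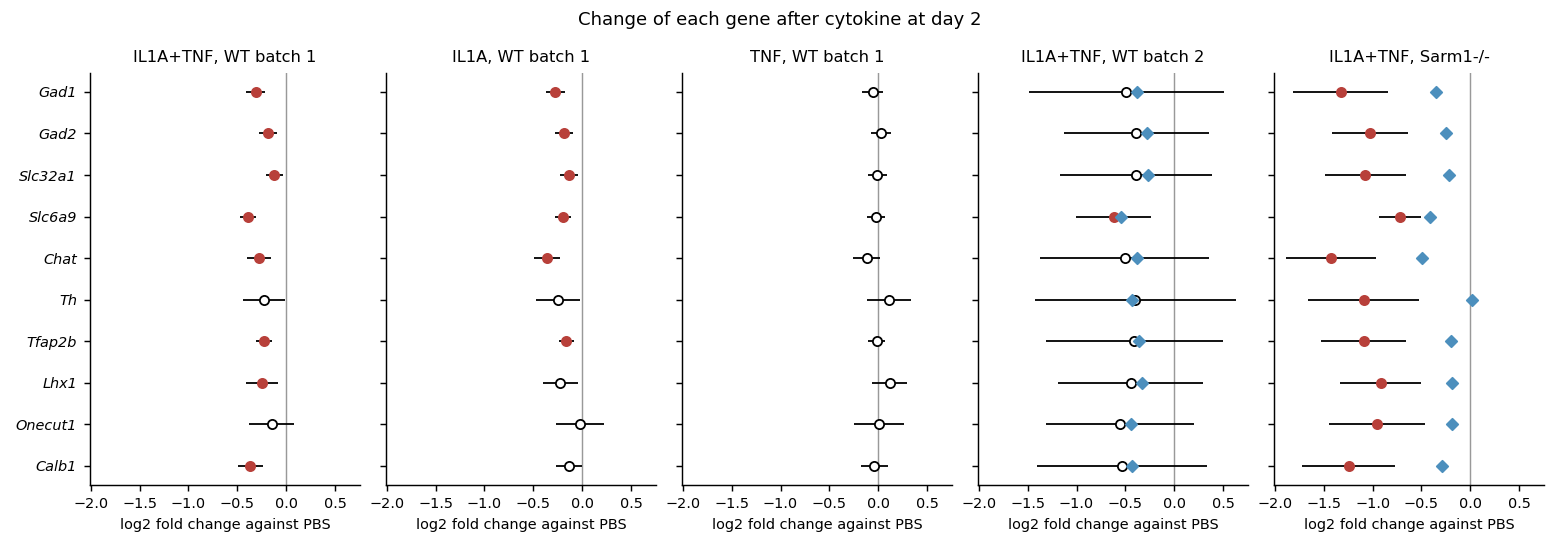
Log2 fold changes of the 10 members with their 95% intervals in 5 comparisons, filled where the FDR was under 0.05, with diamonds for the values without the low retinas in WT batch 2 and in Sarm1-/-. After IL1A+TNF in batch 1 the 8 called members lie between −0.39 and −0.12, and the diamonds of Sarm1-/- lie between −0.49 and 0.02, nearer to 0 than the values with all retinas.

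How the members varied together was described in the 31 PBS retinas of day 2, 1 from each mouse. Of the 45 pairs, 41 had a positive Pearson r of log2 CPM, the median r was 0.439, and 28 pairs passed a Benjamini-Hochberg adjusted permutation p under 0.05 (24 by Spearman's rho), all of them positive. With size factors of DESeq2 in place of TMM the number was 25. The closest pair was Gad1 and Calb1 (r = 0.87, rho = 0.83, permutation p = 1e-05, the smallest that 100000 permutations can give, adjusted p = 0.0001125). Their r was 0.81 without the 2 retinas farthest from the median. Gad2 and Th were the least alike (r = −0.14). Gad2 and Onecut1 had an r of 0.63 that fell to 0.23 without 2 retinas, so that relation rested on them. Each point is 1 library, so both genes of a pair share its depth and cell composition. The share of all gene pairs that would pass was not counted.

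**Figure D5:**
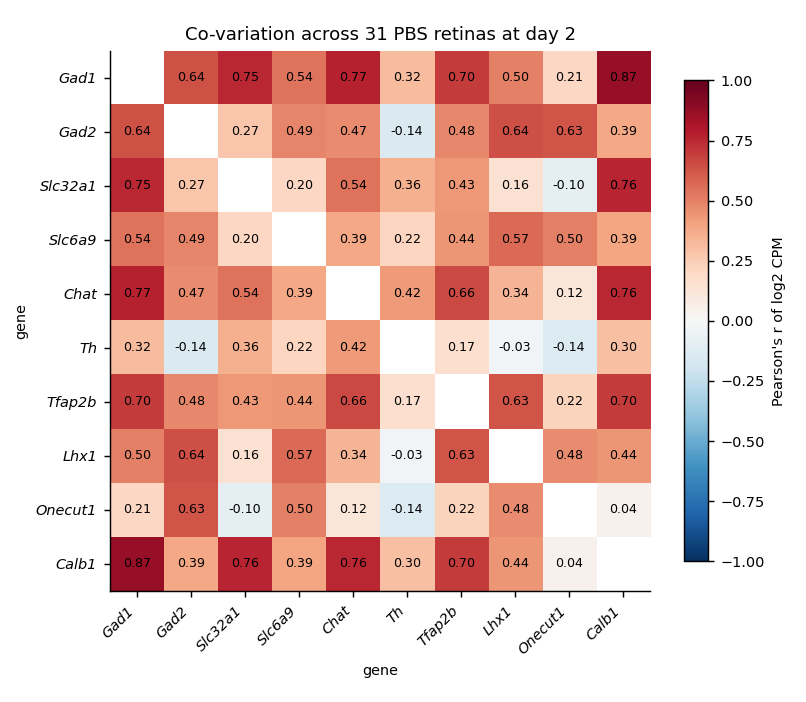
Pearson r of log2 CPM between each pair of the 10 members over 31 WT PBS retinas of day 2, batch 1, as a colour scale from negative to positive. Gad1 and Calb1 are the closest pair at 0.87, and pairs with Th are among the palest.

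Among 15042 genes with a mean of at least 1 CPM in these 31 retinas, the 5 most like each member by Pearson r were found. Those of Gad1 included Syn2 (0.90), a synaptic vesicle protein, Tppp, Ndrg4 and Gnl3l (0.87). Gad2 had Lonrf2 (0.87), Arel1, Prepl, Gpalpp1 and Zfpm2 (0.84), and Slc32a1 had Rnf187 (0.88), Abhd8, Cpe, Necap1 and Nsg1 (0.87). For Slc6a9 these were Slc6a6 (0.79), the taurine transporter, with Abr, Efr3b, Synj2 and Herc3 (0.76). Chat had Rph3a (0.82), Dlgap1 (0.78), Gad1 (0.77), Slc25a53 and Calb1 (0.76), and so 2 of its 5 were members. Th had the weakest, Gulo (0.63), Prr5, Exo5, Chst1 and Eri3 (0.59). Tfap2b was most like Lrtm1 (0.84), Sobp, Dlgap1, Car10 and Chrnb3 (0.81), a nicotinic receptor subunit. Among the horizontal cell genes, Lhx1 had Esrrg (0.83), 5730455P16Rik, Lpgat1, Nlgn1 and Abcd2 (0.78), and Onecut1 had Tnks (0.85), Aff4, Adgrl3, Cntnap5a and Akap11 (0.84). Calb1 had Tram1l1 (0.89), Gad1 (0.87), Dlgap1, Napb and Car2 (0.87).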

How the data were processed

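The authors aligned read pairs of 150 bases from polyA RNA to mouse genome build mm10 with STAR 2.7.9a and counted them per gene with featureCounts of Subread 2.0.1, per the study's methods and the submitters' processing notes. The deposited table holds these counts, not normalized, as whole numbers for 37315 genes in 109 retinas, of which 5937 genes were 0 throughout. The annotation release and strand setting are not given in the sources used here. Symbols for 35449 gene IDs and coordinates came from GENCODE M21 on GRCm38, the assembly of mm10, and promoters from RefSeq on GRCm38.p6. Total counts were 30014757 to 45779899 in batch 1 and 42875980 to 79064488 in batch 2, and the least counted members, Th and Onecut1, varied most between retinas.

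Genes with enough counts (filterByExpr, minimum count 10) were tested with limma 3.58.1 in R 4.3.3 on voom weights, with TMM scaling from edgeR 4.0.16, sex as a covariate and mouse as a random block, and p-values were adjusted by Benjamini-Hochberg over all genes tested (FDR). Called means an FDR under 0.05. CPM and log2 CPM (prior count 2) used the same scaling, and CPM per kb divided by the merged exon length. Day 2 of batch 1 had 1 fit of 58 retinas, days 14 and 35 a fit each, the Sarm1-/- comparisons a fit of all 81 day 2 retinas with batch as a term, and WT of batch 2 a fit of that batch's 23 retinas. The PBS days were compared without a block. Eyes were paired by the mouse number in the labels, and 45 mice gave a pair. The correlation within mice was 0.0515 in the day 2 fit, 0.284 on day 14 and 0.0794 on day 35, and between −0.0763 and 0.113 in the other fits. The scripts were tested on simulated data. The alternatives changed the tool (edgeR's quasi-likelihood test, DESeq2 1.42.0), the scaling (DESeq2's size factors), the filter, the sex term and the block (left out, or mouse fitted as a factor). They also changed the retinas fitted (batch 1 jointly, batch 2 alone, or 1 retina left out in turn). The retinas left out in turn were the cytokine-treated ones of batch 1 and all of batch 2, so PBS retinas of batch 1 were not. Leaving out the low retinas or 1 of 2 PBS eyes of a day 14 mouse, retina quality weights and adding Gad1-ps counts to Gad1 were chosen after seeing the data.

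All 10 members are named, with Gad1-ps beside Gad1. In each comparison, genes named from the amacrine and horizontal cell lists were ranked among the 5 lowest FDR values or the 5 greatest log2 fold changes in size of the called list genes. Likeness used the 5 highest r per member. A few single-gene results are not reported here. Members and lists were chosen with earlier results of these data known, so no list is independent evidence.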

Additional observations from a re-analysis of the deposited data

Results flagged for a closer look

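In 10 of 110 combinations of a member and a group of 4 to 10 retinas, 1 retina lay far from the others of its group by Dixon's test, where chance gives about 1 in 20. Of these, 4 belonged to the same IL1A retina, which was the lowest of 9 for Gad1 (154.1 CPM), Gad2 (45.7 CPM), Chat (5.199 CPM) and Calb1 (43.25 CPM). The low WT IL1A+TNF retina of batch 2 accounted for 2 more, with Gad1 at 104.7 CPM and Slc32a1 at 26.04 CPM. The rest were single genes. Th was at 1.508 CPM in the lowest WT PBS retina of batch 2, and Gad2 at 63.05 CPM in the lowest Sarm1-/- PBS retina. Onecut1 was at 2.26 CPM in the highest Sarm1-/- PBS retina and at 1.453 CPM in the lowest TNF retina of day 35. The 2 low Sarm1-/- IL1A+TNF retinas escape this test because they lie near each other. The PBS retinas of day 2 in batch 1 formed too large a group for it and were not screened.

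The response to IL1A+TNF differed between genotypes for 6 members by the interaction term of limma. The interactions, in Sarm1-/- relative to WT on the log2 scale, were −0.9729 for Gad1 (FDR 0.0202), −0.7947 for Gad2, −0.885 for Slc32a1, −1.0695 for Chat (FDR 0.0102), −0.8235 for Tfap2b and −0.8394 for Calb1. Of the 6 treated Sarm1-/- retinas, 5 for Gad1 and 3 for Gad2 lay below the lowest Sarm1-/- PBS retina. None of the 6 genes was called when either of the 2 low retinas was left out.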

How the results depend on the processing

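The 8 members called after IL1A+TNF in batch 1 were 7 to 9 with any of its 10 retinas left out, and Gad1 was called in all 21 settings (log2 fold change −0.34 to −0.28). IL1A gave 5 to 7 without any one retina, but 1 with mouse as a fixed factor (7 pairs). IL1A+TNF against IL1A gave 2 with a filter of 1 CPM, edgeR, DESeq2 or no sex term. PBS on day 14 against day 2 (4 members) gave 2 or 3 with 1 of the 2 PBS eyes of a shared mouse left out. TNF gave 0 to 0 on each day, as did genotype in PBS retinas. Without the block that pairs the eyes of a mouse, the counts were 8 after IL1A+TNF, 6 after IL1A, 1 for both against IL1A and 0 after TNF, and 0, 9, 10 and 6 in the Sarm1-/- comparisons, so it changed no count.

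Sarm1-/- against WT after IL1A+TNF (9 members) gave 0 with edgeR, DESeq2, quality weights, batch 2 alone, or without the 2 or 3 lowest retinas, and 0 to 10 with 1 retina left out. Genotype by treatment (6 members) also gave 0 in each of these settings, and 0 to 10 with 1 retina left out. IL1A+TNF in Sarm1-/- (10 members) gave 3 without the 2 lowest retinas, 4 without the 3 lowest, 5 with quality weights, 6 with batch 2 alone, 0 with mouse as a fixed factor (6 pairs) and 9 to 10 with 1 retina left out. WT of batch 2 (1 member) gave 10 without the 2 lowest Sarm1-/- retinas, 9 without the 3 lowest, 5 with quality weights, 6 with mouse as a fixed factor and 0 to 1 with 1 retina left out. There 37.2% of all genes were called without the 2 lowest and 32.8% without the 3 lowest. In the same settings 0.889% and 0.489% were called for Sarm1-/- against WT after IL1A+TNF, and 0% in both for the interaction. For IL1A+TNF in Sarm1-/- the shares were 12.6% and 13.9%. With the other settings the share of all genes called is not given here, so those counts cannot be read as particular to the members. The interaction count was 0 without either of the 2 low Sarm1-/- retinas and 10 without either of 2 other IL1A+TNF retinas of that genotype. That of WT batch 2 was 0 without the low WT retina or without either of 2 of its 5 PBS retinas. The causes were not tested beyond what leaving out the retinas shows.

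Some signs turned. For Sarm1-/- against WT after IL1A+TNF without the 2 lowest retinas, the log2 fold changes were 0.18 for Gad1, 0.11 for Gad2, 0.14 for Slc32a1, 0.29 for Th, 0.18 for Tfap2b, 0.13 for Lhx1, 0.022 for Onecut1 and 0.27 for Calb1. Without the 3 lowest they were 0.071, 0.014, 0.028, 0.26, 0.11 and 0.028 for Gad1, Gad2, Slc32a1, Th, Tfap2b and Lhx1, and 0.17 for Calb1. With quality weights they were 0.12, 0.061, 0.042, 0.19, 0.060, 0.020 and 0.19 for the same 7 genes. Th after IL1A+TNF in Sarm1-/- was 0.021 without the 2 and 0.025 without the 3 lowest. The interactions without the 2 lowest were 0.032 for Gad1, 0.0025 for Gad2, 0.096 for Tfap2b and 0.14 for Calb1, without the 3 lowest 0.062 for Tfap2b and 0.090 for Calb1, and with quality weights 0.090 for Calb1. Without the 2 lowest, the interactions of Th (0.33), Lhx1 (0.14), Onecut1 (0.10) and Slc6a9 (0.049), which were not called with all retinas, turned positive too. None of these was called.

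Low counts limit Th and Onecut1, and whole-retina RNA cannot place a change in 1 cell type.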
